A study of Mus musculus with 8 samples.

Results

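The 10 NF-kB genes followed here were measured in F4/80-enriched cells of the mouse inguinal fat pad, namely the 5 subunits Rel, Rela, Relb, Nfkb1 and Nfkb2, the inhibitors Nfkbia, Nfkbie, Nfkbiz and Tnfaip3, and the adaptor Traf1. They were taken by symbol from the 56748 rows of the deposited count table. Each symbol matched 1 row, and all 10 passed the filter on low counts, among 16780 genes tested in all. The Aldara group holds 4 libraries from wild-type (WT) female mice given 62.5 mg of Aldara, a cream with 5% imiquimod, on shaved dorsal skin near the tail on 3 consecutive days. The Vehicle group holds 4 libraries from WT female mice given an equivalent volume of Boots Aqueous Cream/10% Vaseline Lanette Cream, and fat pads of both groups were collected 24 h after treatment ended. Each library pooled the cells of 6 fat pads, about 30000 cells, and the labels' protocols state a purity above 90% for F4/80 and CD64. The sources used here give no age or strain, and do not say whether the libraries of a group came from separate mice. The p-values therefore cover only variation between the pools, which may be technical.

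NF-kB is a family of dimeric transcription factors. In resting cells IkB proteins hold the dimers in the cytoplasm, and kinases downstream of Toll-like receptors and tumour necrosis factor receptors mark IkB for destruction, which frees dimers of Rela or Rel with the Nfkb1 product p50. A slower, non-canonical arm processes the Nfkb2 product p100 to p52, the partner of Relb. Several of the genes that NF-kB switches on encode its own subunits and inhibitors, so that transcript levels of these genes are often read as a record of past activity. Imiquimod is an agonist of Toll-like receptor 7, a receptor that signals to NF-kB in macrophages.

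Total counts ranged from 19537607 to 34471508 per library, and the 10 genes had between 212 and 12352 counts in a library. The libraries were not made of macrophage transcripts alone. Over 14 markers of mammary and skin epithelium the summed level was 12775 to 16427 CPM (counts scaled by library size with TMM factors) in Aldara, against 13040 to 17529 CPM in Vehicle. Over 20 macrophage markers it was 4814 to 12101 CPM in Aldara and 2196 to 4193 CPM in Vehicle. The most abundant of the epithelial markers, Krt8, measured 4175 ± 586 CPM in Aldara and 4143 ± 935 CPM in Vehicle (SD, n = 4 each), and the most abundant macrophage marker, Lyz2, 1426 ± 618 and 549 ± 229 CPM in the same order. Of the macrophage markers 13 rose by edgeR's test and 19 were higher at an unadjusted p under 0.05, and their mean log2 level was 1.48 higher in Aldara. The 8 neutrophil markers summed to 18.7 to 57.8 CPM in Aldara and 5.25 to 12 CPM in Vehicle, with Ly6g at 0 in all libraries. Nearly all of this came from Csf3r, with 37.6 ± 16.9 CPM in Aldara and 8.73 ± 2.75 CPM in Vehicle. S100a8, S100a9, Ly6g, Retnlg, Cxcr2, Mpo and Elane did not pass the filter on low counts. The 7 B cell markers summed to 70.5 to 169 CPM in Aldara, mostly from Ighm, and to 29.5 to 50.7 CPM in Vehicle. The 8 fibroblast markers summed to 69.2 to 145 CPM in Aldara and 213 to 583 CPM in Vehicle. In such bulk libraries fewer cells of a type and less RNA per cell cannot be told apart, and the part of these marker differences in the results below was not tested.

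Promoters are shown first, because the feedback of NF-kB onto its own genes runs through them. RefSeq windows on GRCm38.p6, the assembly of the mm10 build, run from 250 bases before to 50 bases after a transcription start, and 7 of the 10 genes had at least 1 window. Relb, Nfkb1 and Nfkbiz had none. The 2 patterns searched on both strands were the 10-base NF-kB consensus and the 9-base pattern GGNNTTTCC, which overlaps it in part. The windows of Nfkb2 and Rel, which rose with Aldara, and of Nfkbia and Tnfaip3, which did not pass the test, are printed 5′ to 3′ on the strand of the gene, with matches to either pattern in capitals. For Nfkb2 and Tnfaip3 the most upstream of several windows is given. They lie at chr19:46304487-46304786 (Nfkb2, plus strand), chr11:23770920-23771219 (Rel, minus strand), chr12:55492598-55492897 (Nfkbia, minus strand) and chr10:19015361-19015660 (Tnfaip3, minus strand).
Nfkb2: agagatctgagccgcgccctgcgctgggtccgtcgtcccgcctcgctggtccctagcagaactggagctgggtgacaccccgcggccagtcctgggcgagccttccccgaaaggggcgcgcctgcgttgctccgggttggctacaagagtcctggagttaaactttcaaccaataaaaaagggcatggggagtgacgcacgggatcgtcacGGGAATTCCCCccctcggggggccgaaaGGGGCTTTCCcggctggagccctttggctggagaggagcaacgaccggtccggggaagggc
Rel: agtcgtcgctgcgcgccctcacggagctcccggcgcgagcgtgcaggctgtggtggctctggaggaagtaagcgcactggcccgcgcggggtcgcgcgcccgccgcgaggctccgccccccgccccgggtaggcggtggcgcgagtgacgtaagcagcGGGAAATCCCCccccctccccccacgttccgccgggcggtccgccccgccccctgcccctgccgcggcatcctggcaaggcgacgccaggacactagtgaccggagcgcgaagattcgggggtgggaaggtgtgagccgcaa
Nfkbia: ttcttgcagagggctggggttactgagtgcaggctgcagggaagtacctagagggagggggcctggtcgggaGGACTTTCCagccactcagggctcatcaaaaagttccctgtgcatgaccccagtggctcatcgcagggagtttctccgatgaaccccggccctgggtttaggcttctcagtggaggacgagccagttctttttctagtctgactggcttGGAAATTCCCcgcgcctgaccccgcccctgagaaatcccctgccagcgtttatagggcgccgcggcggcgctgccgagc
Tnfaip3: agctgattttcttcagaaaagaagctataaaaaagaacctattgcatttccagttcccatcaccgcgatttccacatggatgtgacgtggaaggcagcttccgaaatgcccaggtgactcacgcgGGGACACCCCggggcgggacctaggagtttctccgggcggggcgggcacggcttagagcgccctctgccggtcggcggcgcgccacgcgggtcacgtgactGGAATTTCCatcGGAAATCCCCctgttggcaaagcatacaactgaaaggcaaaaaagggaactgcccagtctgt
All 4 printed windows hold a match to the consensus. Counted from the start as position 1, with bases before it negative, those of Nfkb2 cover −39 to −29 and −11 to −2. The match in Rel covers −92 to −82. The Nfkbia window has a consensus match at −29 to −20, and a further match to GGNNTTTCC at −178 to −170. The Tnfaip3 window has consensus matches at −125 to −116 and −12 to −3, and a further match to GGNNTTTCC at −24 to −16. By gene, 5 of the 7 held the consensus and 4 held GGNNTTTCC in at least 1 window. By window, 7 of 10 held the consensus and 6 held GGNNTTTCC, beside 8.46% and 5.82% of the 32851 windows of all genes. Of these 10, 3 belong to Nfkb2, and 2 of them overlap and share a site, which is thus counted in both. The second Tnfaip3 window held neither pattern. Nfkbie held the consensus, and the windows of Rela and Traf1 held neither pattern. A match describes these letters and is not evidence of binding.

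With Aldara, 5 of the 10 genes rose and 0 fell by edgeR's quasi-likelihood test (Benjamini-Hochberg adjusted p under 0.05 over all tested genes). At an unadjusted p under 0.05 the same test gave 6 higher and 0 lower, and DESeq2 called 6 higher and 0 lower. Over all 16780 genes DESeq2 called 1540 higher and 1198 lower. Leaving out Aldara replicate 3, Aldara replicate 4 or Vehicle replicate 2 left 3 of the 10 risen. Those that rose were Relb, Nfkb2, Nfkbie, Nfkb1 and Rel, so 4 of the 5 subunits and 1 IkB protein. Nfkbia, Nfkbiz and Tnfaip3, the early-response inhibitors, did not pass the test, nor did Rela and Traf1. Over all genes 6.98% were called higher in Aldara and 3.86% lower. The median log2 fold change of the 10 genes was 0.47, against 0.01 over all genes tested. In either direction 10.8% of all genes passed, and 26.1% had an unadjusted p under 0.05. For 6 of the 10 every Aldara library lay above every Vehicle library, and for 0 every one lay below. Over all genes these shares were 9.97% and 7.79%.

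**Figure D1:**
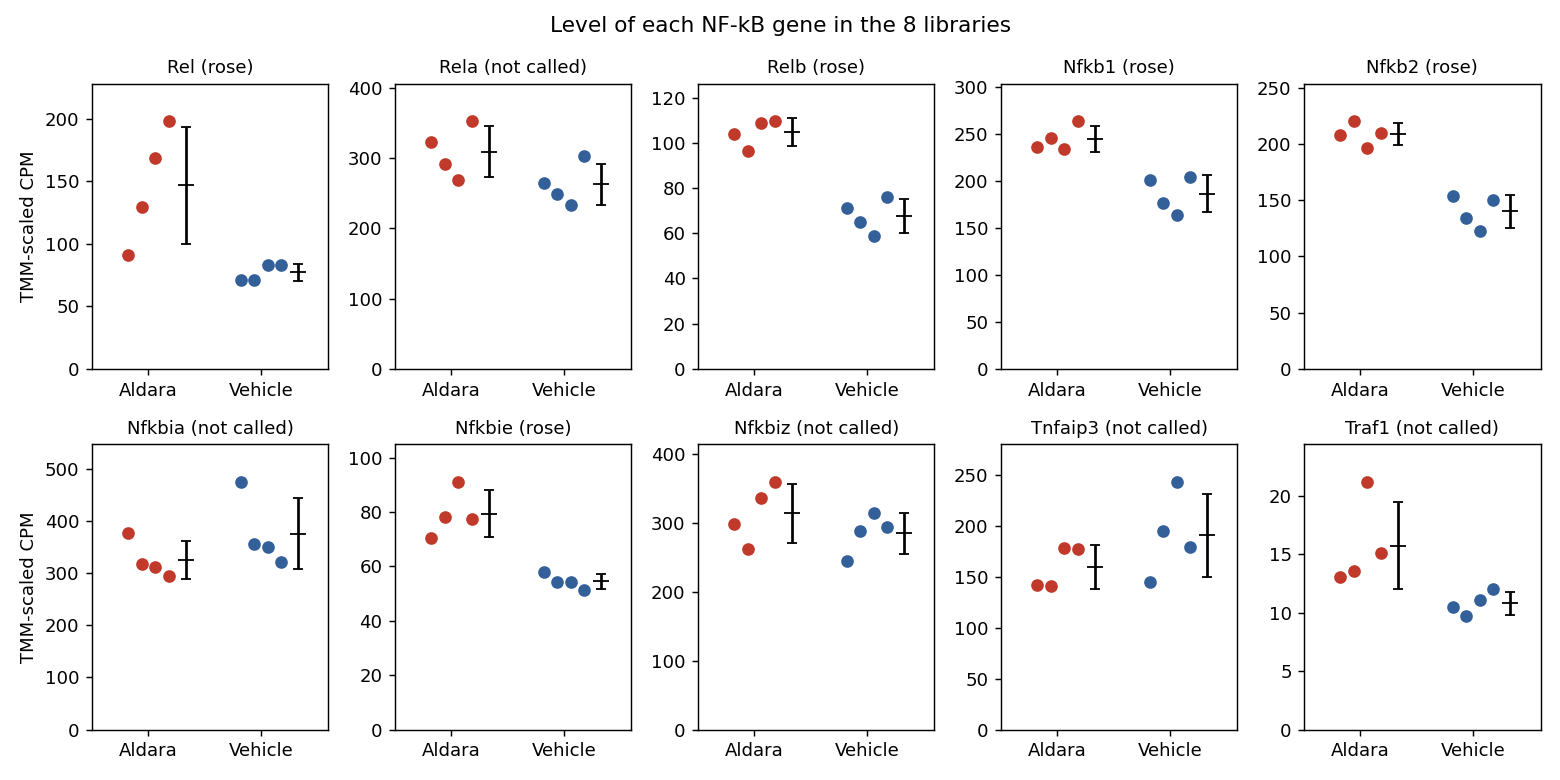
Level of each of the 10 NF-kB genes (vertical axis, TMM-scaled CPM, from 0) in the 4 Aldara libraries (red, left) and the 4 Vehicle libraries (blue, right), with mean ± SD in black. The 4 Aldara points lie above the 4 Vehicle points for Rel, Relb, Nfkb1, Nfkb2, Nfkbie and Traf1, and the groups overlap for Rela, Nfkbia, Nfkbiz and Tnfaip3.

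The 2 genes of the non-canonical dimer rose with little spread. Relb (ENSMUSG00000002983, chr7:19606217-19629438 in GENCODE M21), the subunit that pairs mainly with p52, measured 104, 96.6, 109 and 110 CPM in Aldara replicates 1 to 4, against 71.3, 64.8, 58.9 and 76.2 CPM in Vehicle replicates 1 to 4. Every Aldara library lay above every Vehicle library. The log2 fold change was 0.63 (SE 0.09, edgeR adjusted p = 0.00393). Nfkb2 (ENSMUSG00000025225, chr19:46304320-46312385), which encodes p100, measured 208, 221, 197 and 210 CPM in Aldara, against 154, 134, 122 and 150 CPM in Vehicle. Again the groups did not overlap, and the coefficient of variation was 4.66% in Aldara and 10.4% in Vehicle. The log2 fold change was 0.57 (SE 0.09, edgeR adjusted p = 0.00536). Over 299 bases Nfkb2 overlaps Psd on the other strand, the library kit does not mark strand, and Psd rose as well, with 64.9 ± 3.95 CPM in Aldara and 44.4 ± 3.23 CPM in Vehicle (SD, n = 4 each, log2 fold change 0.55, edgeR adjusted p = 0.00424). Reads from this overlap cannot be told apart.

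Of the canonical subunits, Rel and Nfkb1 passed the test and Rela did not. Rel (ENSMUSG00000020275, chr11:23736847-23770970), which encodes c-Rel, a subunit most abundant in blood cells, measured 90.8, 130, 169 and 199 CPM in Aldara, against 71.1, 71.1, 83.1 and 83.5 CPM in Vehicle. Aldara replicate 1 lay just above the Vehicle range and replicate 4 farthest from it. Its log2 fold change, 0.93 (SE 0.21, edgeR adjusted p = 0.0228), was the largest of the 10, and so was its coefficient of variation in Aldara, 31.9%. The call was lost without Aldara replicate 3 or 4 or Vehicle replicate 1 or 2 (adjusted p = 0.0705, 0.0575, 0.0689 and 0.0643), and with no filter on low counts (0.104).

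Nfkb1 (ENSMUSG00000028163, chr3:135584655-135691547), the precursor of p50, measured 236, 245, 234 and 264 CPM in Aldara, against 201, 176, 163 and 205 CPM in Vehicle. The groups stood apart by a narrow gap, with a log2 fold change of 0.39 (SE 0.1, edgeR adjusted p = 0.0268). That call was lost without Aldara replicate 2, 3 or 4 or Vehicle replicate 2 or 3 (highest adjusted p = 0.0845). Rela (ENSMUSG00000024927, chr19:5637483-5648130), which encodes p65 with its strong activation domain, measured 324, 291, 269 and 353 CPM in Aldara, against 264, 249.4, 234 and 302 CPM in Vehicle. Its groups overlapped, and it did not pass the test (log2 fold change 0.24, SE 0.11, edgeR adjusted p = 0.221). Between libraries of the same number Rela was higher in Aldara in 4 of 4 pairs, by 0.2 to 0.29 on the log2 scale, and with the replicate block the adjusted p was 0.0693.

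Of the 4 inhibitors, Nfkbie passed the test. Nfkbie (ENSMUSG00000023947, chr17:45555703-45563169), which encodes the cytoplasmic inhibitor IkB-epsilon, measured 70.4, 78.3, 91.2 and 77.4 CPM in Aldara, against 58.0, 54.4, 54.3 and 51.5 CPM in Vehicle. All Aldara libraries were higher, by 0.54 on the log2 scale (SE 0.09, edgeR adjusted p = 0.00591). Nfkbia (ENSMUSG00000021025, chr12:55489410-55492647), which encodes IkB-alpha, the fastest feedback inhibitor, measured 377, 317, 311 and 294 CPM in Aldara, against 475, 355, 349 and 322 CPM in Vehicle. The groups overlapped, Vehicle replicate 1 was the highest library, and the log2 fold change was −0.21 (SE 0.13, edgeR adjusted p = 0.378).

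Tnfaip3 (ENSMUSG00000019850, chr10:19000910-19015657) encodes A20, an enzyme that edits ubiquitin chains and shuts the signal down upstream of IkB. It measured 142, 141, 179 and 178 CPM in Aldara, against 145, 196, 244 and 179 CPM in Vehicle (log2 fold change −0.26, SE 0.15, edgeR adjusted p = 0.332). Nfkbiz (ENSMUSG00000035356, chr16:55811375-55838899) encodes IkB-zeta, a nuclear protein that also helps to switch on a subset of NF-kB targets. It measured 298, 262, 336 and 360 CPM in Aldara, against 244, 287, 314 and 294 CPM in Vehicle (log2 fold change 0.14, SE 0.12, edgeR adjusted p = 0.52). For both genes the groups overlapped. Between libraries of the same number Nfkbia and Tnfaip3 were lower in Aldara in 4 of 4 pairs, and Nfkbiz was higher in 3 of 4. With the replicate block their edgeR adjusted p-values were 0.143 for Nfkbia, 0.157 for Tnfaip3 and 0.401 for Nfkbiz. Traf1 (ENSMUSG00000026875, chr2:34941750-34961772), an NF-kB-induced adaptor of tumour necrosis factor receptors, measured 13.1, 13.6, 21.2 and 15.1 CPM in Aldara, against 10.5, 9.69, 11.04 and 12.04 CPM in Vehicle. The groups did not overlap, yet the gene missed the threshold (log2 fold change 0.54, SE 0.16, edgeR adjusted p = 0.0574). It passed with the replicate number as a block (adjusted p = 0.0368), in DESeq2 (0.029), with no low-count filter (0.0441) and without Aldara replicate 1 (0.0363).

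**Figure D2:**
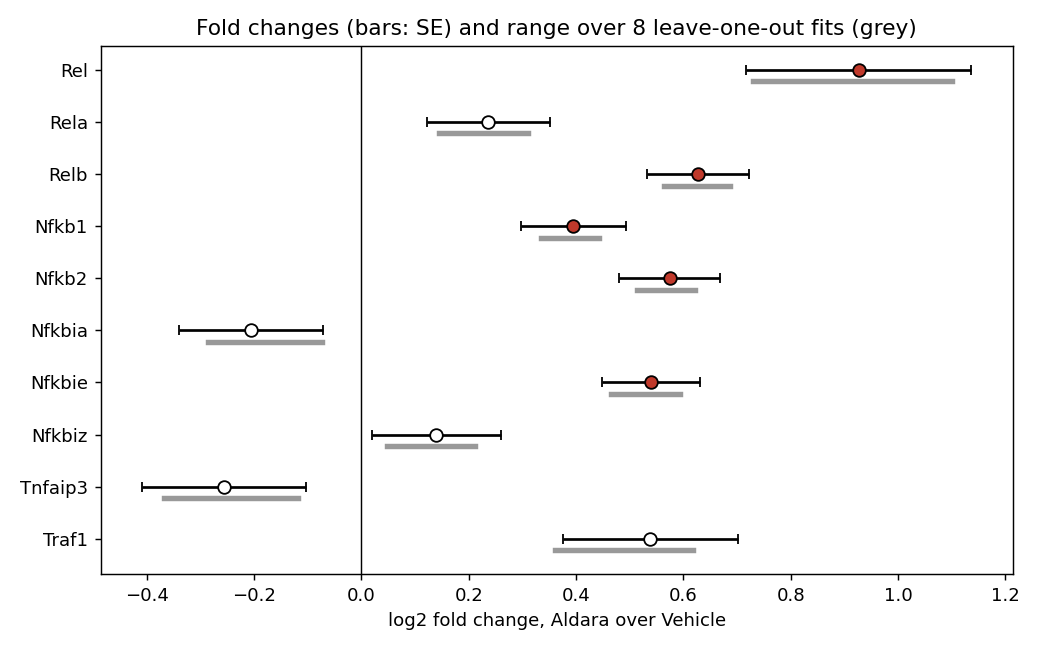
Log2 fold change of each NF-kB gene, Aldara over Vehicle (horizontal axis), with its SE as a bar, filled where the gene passed edgeR's test. The grey line is the range over the 8 fits that each leave out 1 library. Rel had the highest value, 0.93, with a leave-one-out range of 0.73 to 1.1, and the values of Nfkbia and Tnfaip3 lay below 0.

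Levels between genes were compared per kilobase of the union of annotated exons, which understates genes with long, rarely used exons. On this scale Nfkbia was highest, with 202 ± 22.6 CPM per kilobase in Aldara and 233 ± 42.3 in Vehicle (SD, n = 4 each here and below). Rela came next with 101 ± 11.9 CPM per kilobase in Aldara and 85.4 ± 9.56 in Vehicle, then Nfkbiz with 62.6 ± 8.59 in Aldara and 56.8 ± 5.9 in Vehicle, and Nfkb2 with 45.5 ± 2.12 in Aldara and 30.6 ± 3.18 in Vehicle. The remaining genes except Traf1 ranged from 19.7 ± 6.28 (Rel) to 27.0 ± 1.56 (Relb) CPM per kilobase in Aldara and from 10.3 ± 0.947 (Rel) to 26.4 ± 5.67 (Tnfaip3) in Vehicle. Relb and Nfkbie differed by less than their SD in both groups, and in Vehicle Tnfaip3 differed from Nfkb2 by less than its own SD. Traf1 was lowest, with 1.78 ± 0.425 CPM per kilobase in Aldara and 1.23 ± 0.112 in Vehicle.

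Ratios between genes of 1 library hardly depend on how libraries are scaled, and 6 of them were compared. The log2 ratio of Relb to Rela was −1.64, −1.59, −1.31 and −1.68 in Aldara, against −1.89, −1.94, −1.99 and −1.99 in Vehicle, so that all Aldara libraries were higher, by a mean of 0.4. The ratio of Nfkb2 to Nfkb1 was higher by 0.18 (−0.23 ± 0.08 in Aldara and −0.41 ± 0.03 in Vehicle), and that of Nfkbie to Nfkbia by 0.73 (−2.03 ± 0.28 in Aldara and −2.76 ± 0.18 in Vehicle). In each of these 3 the groups did not overlap, which gives 0.0286, the smallest p that a two-sided exact permutation of 4 against 4 libraries allows. After Benjamini-Hochberg adjustment over the 6 ratios each stood at an exact permutation p of 0.0571, so none passed 0.05. Without Aldara replicate 1 these 3 and the ratio of Rel to Rela each had an adjusted exact permutation p of 0.0429. All 4 then stood at the smallest p that the permutation allows. For the 3 the adjusted p was lower only because Rel to Rela joined them in the adjustment over 6 ratios. With all libraries Rel to Rela was higher by 0.64 in the mean but overlapped (exact permutation p = 0.0857, adjusted 0.129). The ratios of Nfkbiz and of Tnfaip3 to Nfkbia differed by 0.33 and −0.04 (exact permutation p = 0.257 and 0.943, adjusted 0.309 and 0.943). Between libraries of the same number all of these ratios were higher in Aldara in 4 of 4 pairs except that of Tnfaip3 to Nfkbia, which was higher in 2 of 4.

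**Figure D3:**
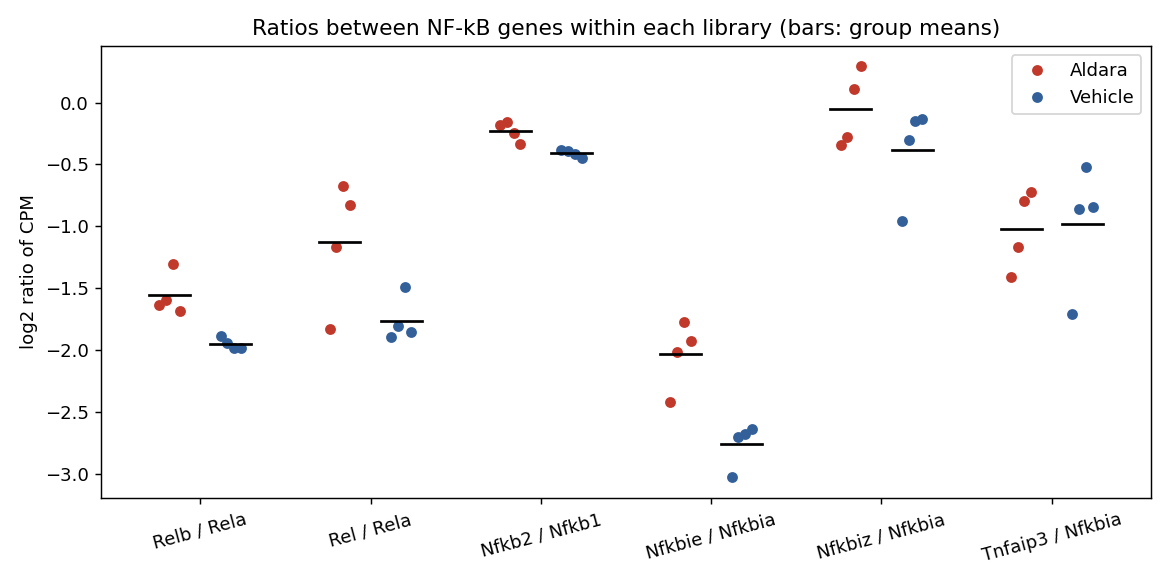
Log2 ratio of the CPM of 2 NF-kB genes within each library (vertical axis) for 6 pairs, with Aldara in red on the left and Vehicle in blue on the right, and group means as black bars. Aldara lies wholly above Vehicle for Relb to Rela, Nfkb2 to Nfkb1 and Nfkbie to Nfkbia, and overlaps it for the other pairs.

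Within the groups the 10 genes did not vary as a block. Deviations of log2 CPM from the group mean were correlated over the 8 libraries, as a description without a test, since all genes share the depth and cell makeup of their library. Over the 45 pairs Pearson's r ranged from −0.88 to 0.88, with a median of 0.07. Nfkb1 varied with Nfkb2 (r = 0.88), Relb (0.82) and Rela (0.79). Nfkbiz varied with Tnfaip3 (0.86) and Rel (0.64), whereas Nfkb2 and Tnfaip3 went in opposite directions (−0.88).

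The same deviations were set beside the mean log2 level of the marker lists. Within a group, Rel (r = 0.9), Tnfaip3 (0.84), Nfkbiz (0.79), Traf1 (0.66) and Nfkbie (0.5) were higher in libraries with more macrophage marker RNA. Relb (−0.03), Nfkb1 (−0.19) and Rela (−0.23) showed little relation to it, Nfkb2 stood at −0.56 and Nfkbia at −0.73. Nfkbia was instead higher, within a group, where the epithelial markers were higher (r = 0.85), and Rel was lower there (−0.84). Aldara replicate 1 held the least macrophage marker RNA of its group, with a mean log2 CPM of 7.15 against 7.65 to 8.46 in the other Aldara libraries, and it also had the lowest Rel and the highest Nfkbia of that group.

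**Figure D4:**
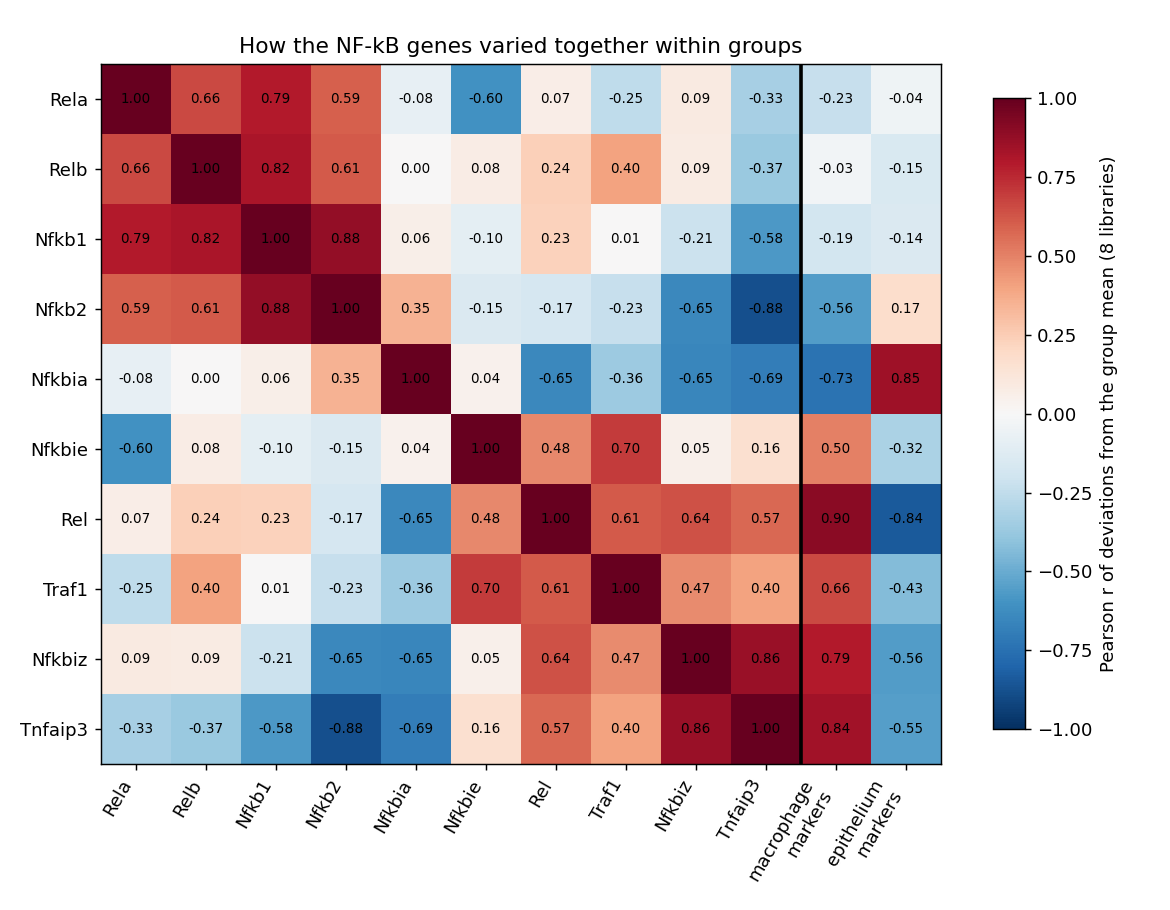
Pearson's r between deviations of log2 CPM from the group mean over the 8 libraries, for pairs of the 10 NF-kB genes and, right of the black line, against the mean of 20 macrophage markers and 14 epithelial markers. Rela, Relb, Nfkb1 and Nfkb2 have r between 0.59 and 0.88 with each other, and Rel, Traf1, Nfkbiz and Tnfaip3 have r between 0.66 and 0.9 with the macrophage markers.

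Relative to the macrophage markers, all 10 genes were lower in Aldara, since the mean of the markers was higher by more than any of them. The difference of log2 levels was −0.61 for Rel, −0.85 for Relb, −0.9 for Nfkb2, −1.08 for Nfkb1 and −0.95 for Nfkbie, and it reached −1.68 for Nfkbia and −1.72 for Tnfaip3. The groups did not overlap on this scale for 5 genes, Rel, Nfkbia, Nfkbiz, Tnfaip3 and Traf1, with Aldara below Vehicle. The marker mean was higher by 1.48, and the median log2 fold change over all genes was 0.01. Lower values on this scale are therefore not particular to these genes. The share of all genes without overlap was not computed on this scale or on the epithelial one below. Relative to the epithelial markers, Relb (0.71), Nfkb2 (0.66) and Nfkbie (0.61) were higher in all Aldara libraries than in any Vehicle library, whereas the other 7 overlapped. These values are descriptions without a test, and the 5 genes that rose were higher in the mean against the epithelial markers and lower against the macrophage markers, where 4 of the 5 overlapped.

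Genes most like Relb, the gene of smallest p among the 10, were sought by log2 CPM over the 8 libraries. The search covered 10989 other named genes with a mean of at least 5 CPM, predicted gene models left out. Highest were Abr (r = 0.98), Arc (0.98) and Hps4 (0.97). Abr, a regulator of small GTPases, measured 83.5 ± 3.42 CPM in Aldara and 66.7 ± 3.35 CPM in Vehicle (SD, n = 4 each). Arc, an immediate-early gene best known from neurons, measured 107 ± 4.76 CPM in Aldara and 61.9 ± 13.0 CPM in Vehicle. Hps4, a subunit of a complex for lysosome-related organelles, measured 32.0 ± 1.51 CPM in Aldara and 26.0 ± 2.12 CPM in Vehicle. These correlations hold the group difference as well and carry no test.

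Of the other parts of the pathway, the receptors, adaptors and kinases upstream had 7 of 28 genes risen and 0 fallen (6.98% and 3.86% over all genes). The median log2 fold change of this list was 0.19. Tnfrsf1b, the tumour necrosis factor receptor of leukocytes, measured 116, 157, 285 and 260 CPM in Aldara, against 61.5, 66.2, 57.6 and 74.1 CPM in Vehicle (log2 fold change 1.66, SE 0.26, edgeR adjusted p = 0.00651). Its Aldara libraries were all higher but spread widely. Irak3, an inhibitory kinase-like protein, rose by 1.42 (SE 0.24, edgeR adjusted p = 0.00735) and the DNA sensor Tlr9 by 2.09 (SE 0.35, adjusted p = 0.00767). The endotoxin receptor Tlr4 rose by 0.62 (SE 0.14) and the kinase Irak4 by 0.41 (SE 0.11). The call on Tlr4 was lost without Aldara replicate 2 or Vehicle replicate 2 (adjusted p = 0.0534 and 0.0526), and that on Irak4 in 7 of the 16 other fits (adjusted p up to 0.113). Tlr7 itself measured 17.8, 31.5, 45.4 and 60.9 CPM in Aldara, against 10.7, 17.96, 25.9 and 21.5 CPM in Vehicle, with overlapping groups (log2 fold change 1.02, SE 0.37, edgeR adjusted p = 0.118). The adaptor Myd88 did not pass either (adjusted p = 0.665). The catalytic IkB kinase Ikbkb and the adaptor Traf5 passed at edgeR adjusted p = 0.0458 and 0.0478, whereas Chuk, the other catalytic subunit, measured 56.4 ± 3.43 CPM in Aldara and 54.3 ± 1.37 CPM in Vehicle (adjusted p = 0.719). At an unadjusted p under 0.05 the list had 13 higher and 1 lower, beside 26.1% of all genes in either direction. In DESeq2 0 fell. The number that rose was 4 under upper-quartile scaling, and also 4 in each leave-one-out fit except that without Aldara replicate 1, which gave 8. It was 9 with DESeq2 and 10 with the replicate block, where 1540 and 1546 of all 16780 genes rose.

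In the non-canonical arm 3 of 12 tested genes rose and 0 fell (6.98% and 3.86% over all genes), with a median of 0.22. At an unadjusted p under 0.05 there were 5 higher and 0 lower, beside 26.1% of all genes in either direction. Tnfsf13b, the B cell survival factor BAFF, measured 2.39, 2.59, 3.99 and 5.0 CPM in Aldara, against 0.516, 0.731, 1.04 and 0.514 CPM in Vehicle (log2 fold change 2.28, SE 0.33, edgeR adjusted p = 0.00333). The receptor RANK, encoded by Tnfrsf11a, rose by 0.59 (SE 0.14, edgeR adjusted p = 0.0253) and the ligand Ltb by 1.66 (SE 0.41, adjusted p = 0.0281), at 1.02 ± 0.447 CPM in Aldara and 0.331 ± 0.0986 CPM in Vehicle. Both were lost in 6 of their other fits (highest adjusted p = 0.0856 and 0.091). Map3k14, which encodes the inducing kinase NIK, measured 49.8 ± 2.87 CPM in Aldara and 42.3 ± 3.16 CPM in Vehicle (edgeR adjusted p = 0.1), and Birc3 122.6 ± 14.0 and 95.2 ± 11.2 CPM in the same order (adjusted p = 0.059). Leaving out Aldara replicate 2 or 3 or Vehicle replicate 1, 3 or 4 left 1 gene of this list risen. Traf2, Traf3, Chuk and Birc3 each stand in 2 of the lists.

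Of 17 other IkB proteins and NF-kB inhibitors 2 rose and 0 fell (6.98% and 3.86% over all genes), with a median of 0.24. With the replicate block 5 rose, beside 1546 of all 16780 genes. At an unadjusted p under 0.05 there were 6 higher and 0 lower, beside 26.1% of all genes in either direction. A count of 2 among 17 is too small to be read as a result about the list. Zc3h12a, which encodes the RNase regnase-1 that destroys cytokine transcripts, measured 110, 115, 148 and 149 CPM in Aldara, against 77.2, 88.1, 86.0 and 90.0 CPM in Vehicle. Its groups did not overlap (log2 fold change 0.62, SE 0.11, edgeR adjusted p = 0.0081). Cyld, a deubiquitinase, rose by 0.29 (SE 0.08, adjusted p = 0.0458), a call lost in 12 of the 16 other fits (adjusted p up to 0.142), among them each of the 8 that leave out 1 library. Tnip2 (0.33, SE 0.1, edgeR adjusted p = 0.0502), Itch (0.25, SE 0.08, 0.0769) and Tnip1 (0.32, SE 0.13, 0.147) did not pass.

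Genes known as NF-kB targets did not share a direction. Of 38 tested 8 rose and 2 fell (6.98% and 3.86% over all genes), with a median of 0.26. With the replicate block 13 rose and 4 fell, beside 1546 and 1030 of all 16780 genes. At an unadjusted p under 0.05 there were 15 higher and 6 lower, beside 26.1% of all genes in either direction. Without Aldara replicate 3 or 4 or Vehicle replicate 1 or 2 the number that rose was 4. The acute-phase gene Saa3 rose by 6.92 (SE 0.59, edgeR adjusted p = 0.000853). Cd44, a receptor of hyaluronan, measured 102, 133, 157 and 150 CPM in Aldara, against 62.5, 60.2, 54.8 and 58.2 CPM in Vehicle, with an edgeR adjusted p of 0.000956. Ikbke, a kinase related to the IkB kinases, measured 37.5, 48.0, 70.1 and 74.2 CPM in Aldara, against 17.8, 20.6, 21.3 and 20.6 CPM in Vehicle (log2 fold change 1.51, SE 0.2, edgeR adjusted p = 0.00305). Lcn2, an iron-binding lipocalin also made by epithelium, rose by 0.81 (SE 0.11) and the gelatinase Mmp9 by 1.29 (SE 0.28). The call on Mmp9 was lost in 5 of the 16 other fits (edgeR adjusted p up to 0.108). For Saa3, Cd44, Ikbke, Lcn2 and Mmp9 the groups did not overlap.

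All tested cytokine and chemokine genes of the list are given next but Cxcl10, Cxcl16, Csf1 and Il1rn, which did not pass. The chemokines Ccl4 and Ccl5 rose, with 42.7 ± 20.4 CPM in Aldara and 17.1 ± 4 CPM in Vehicle for Ccl4 (log2 fold change 1.32, SE 0.33, edgeR adjusted p = 0.0366) and 1.72 ± 0.725 and 0.581 ± 0.332 CPM in the same order for Ccl5 (1.51, SE 0.43, 0.0447). Their groups did not overlap. Ccl3 and Ccl2 had log2 fold changes of 1.1 and 0.63 and did not pass (edgeR adjusted p = 0.0953 and 0.205). Tnf measured 34.7 ± 7.43 CPM in Aldara and 24.5 ± 3.24 CPM in Vehicle (edgeR adjusted p = 0.0576, SD, n = 4 each), Il1b 62.1 ± 29.2 and 54.3 ± 15.9 CPM in the same order (adjusted p = 0.763) and Il6 38.8 ± 11.4 and 58.9 ± 15.2 CPM (0.154). Il6 and Il1b overlapped between the groups, as did Tnf. The neutrophil attractants Cxcl1 and Cxcl2 had log2 fold changes of −0.45 and −0.85 (edgeR adjusted p = 0.168 and 0.123), and the adhesion molecule Icam1 −0.13 (0.411). The 2 targets that fell were Il1a and the transcription factor Irf1. Il1a measured 2.75 ± 1.06 CPM in Aldara and 6.32 ± 1.74 CPM in Vehicle (edgeR adjusted p = 0.0259), without overlap. Irf1 measured 96.4 ± 8.25 and 126 ± 17.5 CPM in the same order (edgeR adjusted p = 0.0458), and its groups overlapped. The number of targets that fell was 0 without Aldara replicate 2 or Vehicle replicate 3 or 4. Ccl4, Ccl5, Ccl3, Ccl2, Cxcl10, Cxcl16, Csf1, Il1rn, Tnf, Il1b, Il6, Cxcl1, Cxcl2, Icam1, Il1a, Irf1, Tlr7, Myd88, Ikbkb, Traf5 and Chuk were named after their values were seen.

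**Figure D5:**
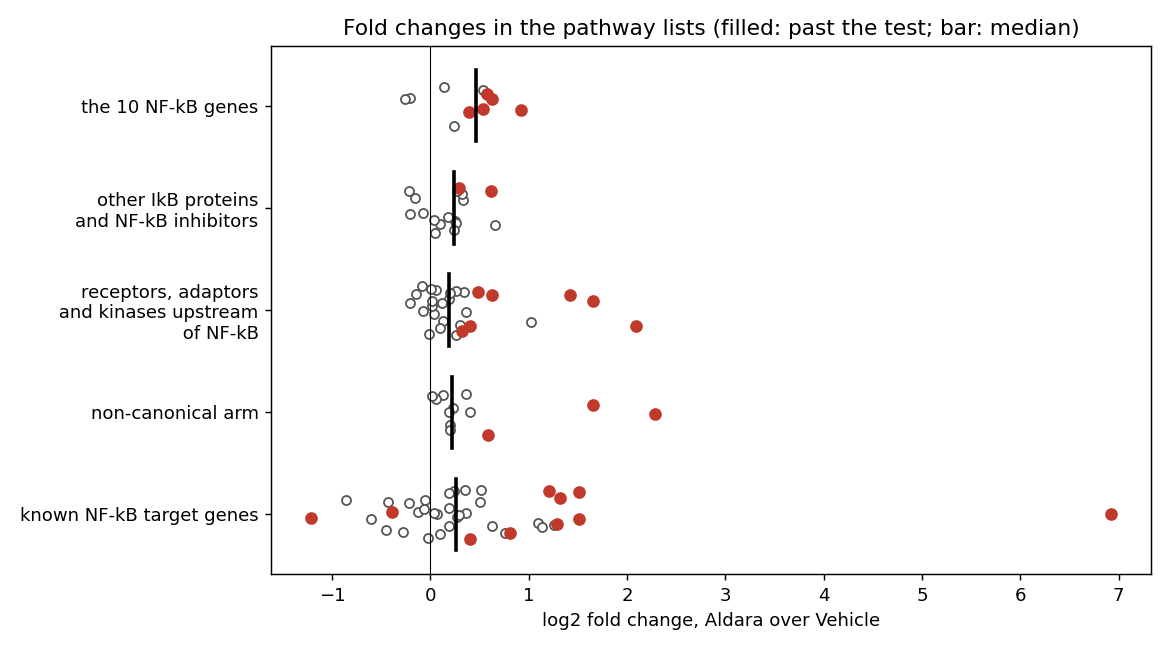
Log2 fold change, Aldara over Vehicle (horizontal axis), of each tested gene of the 10 NF-kB genes and of 4 lists of the pathway. Filled points passed edgeR's test and black bars are list medians, which lie at 0.47 for the 10 genes and between 0.19 and 0.26 for the other lists. Saa3, at 6.92, stands far to the right.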

How the data were processed

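The deposited values are raw read counts of each gene, as whole numbers. The submitters' processing notes name the build mm10, featureCounts 1.5.0-p3, HISAT2 2.0.5 and DESeq2. How multi-mapping reads or strand were handled is not stated there. The low-input kit amplifies poly-A RNA and does not mark strand, per the labels' protocols and the kit's design. Identifiers were named with GENCODE M21 (91.8% matched).

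Counts were tested with edgeR 4.0.16 in R 4.3.3 (filterByExpr, TMM factors, robust quasi-likelihood F test, Aldara against Vehicle, Benjamini-Hochberg over 16780 genes, threshold 0.05). A log2 fold change sets Aldara over Vehicle, and its SE was derived from the F statistic. Log2 CPM used a prior count of 2. The procedure was tested on simulated data. Alternatives were other scalings, filters, DESeq2 1.42.0, voom in limma 3.58.1, a replicate block and leaving out each library. Same-numbered libraries of the groups deviated together over all genes, though weakly (r of 0.108 to 0.228, all over 0.1). This is read from the data as possible pairing, which the labels do not state. Replicate 1 held the least and replicate 3 the most macrophage marker RNA in both groups, and the part of this in the r values was not tested. Libraries of unlike number had r of −0.216 to 0.082. The main test and the exact permutation of the ratios do not use this pairing. Counts of the most similar replicate pair gave chi-square over degrees of freedom of 20.4, so no library was treated as a duplicate.

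The 10 genes and the lists were chosen with earlier results of these data known. Named genes are the 10, the 5 of smallest p in each pathway list, the top markers and the 3 genes most like the member of smallest p; others are marked in the text. Amplified reads are not independent molecules, so depth gives counting error only.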

Additional observations from a re-analysis of the deposited data

Results flagged for a closer look

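Of the values by group, 2 sets of 4 libraries held 1 library far from the other 3, of 72 sets examined, where chance alone sets about 1 in 20 apart. For Cyld, Aldara replicate 2 measured 87.6 CPM, and the next Aldara library 76.5 CPM. For the log2 ratio of Nfkbie to Nfkbia, Vehicle replicate 1 stood at −3.03 and the next Vehicle library at −2.7.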

How the results depend on the processing

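Relb, Nfkb2 and Nfkbie kept their direction and their call under all 16 alternatives, with log2 fold changes of 0.56 to 0.69, 0.51 to 0.62 and 0.47 to 0.59. Rela, Nfkbia, Nfkbiz and Tnfaip3 were called under none. The number of the 10 genes that rose was 5 or 6 under the alternatives with all libraries, and 3 to 6 when 1 library was left out, with 3 without Aldara replicate 3 or 4 or Vehicle replicate 2. It is the calls on Rel, Nfkb1 and Traf1 that differed. Over all genes, 1171 rose and 647 fell. The falling genes numbered 990 under upper-quartile factors (979 rose, so the share rising was 49.7% in place of 64.4%). They numbered 1198 with DESeq2 (1540 rose) and 1030 with the replicate block (1546 rose). Leaving out 1 library gave 629 to 1405 rising and 323 to 664 falling genes. Among other inhibitors 1 rose under upper-quartile factors, DESeq2 size factors, voom and no low-count filter, 5 with the replicate block and 1 to 2 when 1 library was left out. Of the upstream genes 4 rose under upper-quartile factors, 9 with DESeq2, 10 with the replicate block and 4 to 8 without 1 library. In the non-canonical arm 1 to 4 rose and 0 to 1 fell without 1 library, and 1 fell with no low-count filter. Of the targets 13 rose and 4 fell with the replicate block, 1 fell with voom, and 4 to 11 rose and 0 to 2 fell without 1 library. The following 4 ratios, each then at the smallest p the permutation allows, passed 0.05 without Aldara replicate 1 (adjusted exact permutation p = 0.0429 each). Their leave-one-out ranges were 0.31 to 0.44 for Relb to Rela, 0.48 to 0.87 for Rel to Rela, 0.15 to 0.21 for Nfkb2 to Nfkb1 and 0.64 to 0.86 for Nfkbie to Nfkbia. The ratio of Tnfaip3 to Nfkbia changed sign, with leave-one-out values between −0.29 and 0.11. The cause of these differences was not tested. Traf1 had the fewest counts of the 10 genes, 212 to 515 in a library. The replicate block changed no other call on the 10 genes than that on Traf1.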
